A study of Mus musculus with 4 samples.

Results

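Receptors of the TNF family, through which B cells receive survival, costimulatory and death signals, were followed in sorted follicular B cells as a group of 10 genes. They were chosen by name, as the receptors for BAFF and APRIL (Tnfrsf13b, Tnfrsf13c and Tnfrsf17), Cd40, Cd27, both TNF receptors (Tnfrsf1a and Tnfrsf1b), Tnfrsf14, Ltbr and Fas, and all 10 were found among the 23305 genes of the series. RNA was sequenced from 2 WT and 2 Ets1-/- samples. The WT mice were female C57BL/6 purchased animals, and the Ets1-/- mice were female, bred in the study's facility on a mixed C57BL/6 x 129Sv background and carried the germline mutation in every cell, so that genotype, strain and breeding site cannot be told apart. The age of these mice is not given in the sources used here. All 4 samples were spleen cells sorted as B220+ CD23-high CD21-low and negative for CD80 and the switched immunoglobulin classes, the gate for unactivated follicular B cells, and were not stimulated.

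TNF receptor family members are membrane proteins that trimeric ligands of the TNF family bring together. Most recruit TRAF adaptor proteins to their cytoplasmic tails and through them switch on NF-kB, while a few, such as Fas and TNFR1, carry a death domain that can start apoptosis. Resting follicular B cells depend on BAFF, sensed mainly through BAFF-R, for their survival, and CD40 delivers the signal of helper T cells. Ets1 is a transcription factor that helps to keep B cells quiescent, and the comparison of both genotypes asks which transcripts of these cells differ in its absence.

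The mean level of the receptors over the 4 libraries ran from 199.98 FPKM for Tnfrsf13c down to 0.300 FPKM for Ltbr. FPKM, the unit the authors deposited, counts sequenced fragments of a gene after scaling by transcript length and library size. None of the 8 receptors that could be tested was called changed between the genotypes by limma. A call needed at least a 2-fold difference on the log2(FPKM + 1) scale together with a Benjamini-Hochberg (BH) adjusted p no higher than 0.05, and was made for 0 of 8 receptors and for 1.70% of the 10949 genes tested. The median log2 fold change, Ets1-/- minus WT, was 0.021 over the 8 receptors and -0.015 over all genes tested. Tnfrsf13c, which encodes BAFF-R, was lower in both Ets1-/- libraries than in both WT libraries, and Tnfrsf14, which encodes HVEM, was higher in both, and these were also the 2 tested receptors with an unadjusted p under 0.05. That threshold was passed by 13.3% of all genes tested. Among all genes tested, both Ets1-/- libraries lay above both WT libraries for 19.4% and below them for 22.2%, against 1 of 8 receptors in each direction. Tnfrsf17 and Ltbr had a mean FPKM under 1 in both genotypes and did not enter the test.

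The FPKM tables do not hold read numbers. Ratios between low values gave relative depths that differed by up to 2.0 times between the libraries, and 10466 to 10713 genes reached 1 FPKM in a library. Ets1 itself had an FPKM of 231 and 275 in WT and of 229 and 229.8 in Ets1-/- libraries (limma, BH-adjusted p = 0.860). The study's coverage tracks show reads over most Ets1 exons of the mutated allele too, so this whole-gene value does not check the labels. The B cell markers Cd79a, Ms4a1 and Pax5 were present in all 4 libraries, at 1407 to 2051, 604 to 689 and 201 to 269 FPKM. All 8 neutrophil markers were higher in both Ets1-/- libraries, where they summed to 2555 and 699 FPKM against 111 and 92.3 in WT, and all 4 erythroid markers likewise, at 63.5 and 27.5 against 6.21 and 3.95. The 5 NK cell markers were lower in both Ets1-/- libraries, at 5.19 and 10.6 against 28.3 and 17.1. Of all genes tested, 19.4% were higher and 22.2% lower without overlap. Called were 3 of 8 neutrophil, 0 of 4 erythroid and 0 of 5 NK cell markers, against 1.70% of all genes tested. In bulk samples such as these, fewer cells of a type and less RNA per cell cannot be told apart.

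**Figure D1:**
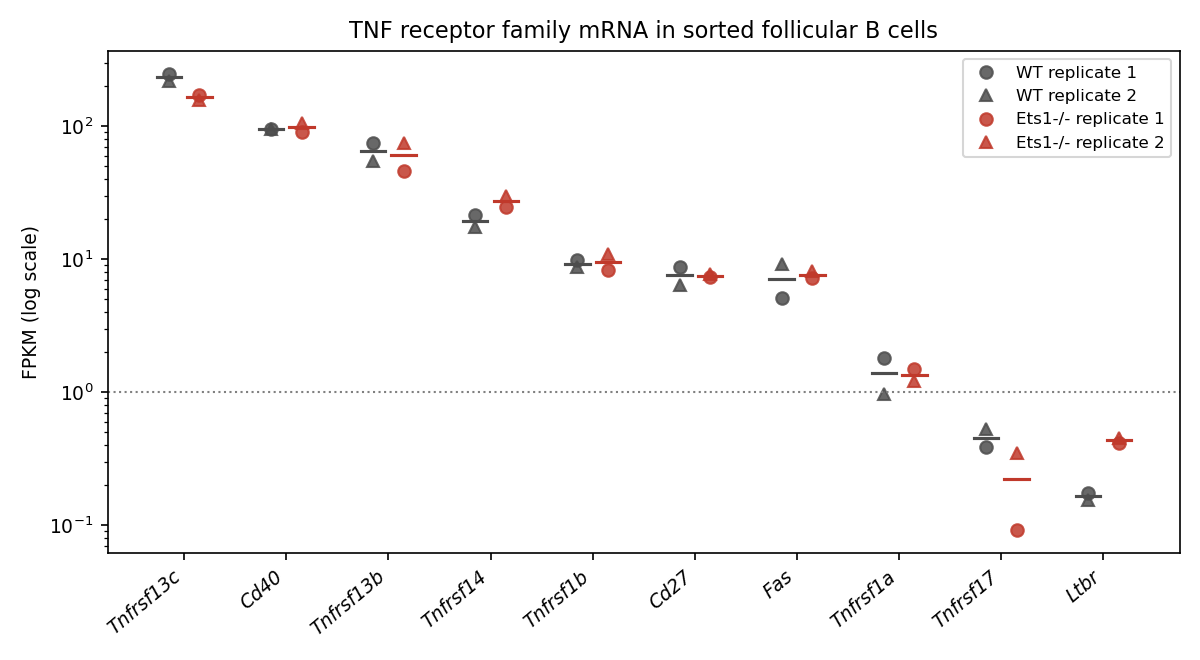
FPKM of the 10 receptors on a log axis, with 1 point per library, circles for replicate 1 and triangles for replicate 2, grey for WT and red for Ets1-/-, and a bar at each genotype mean. Tnfrsf13c, Cd40 and Tnfrsf13b stand above the other receptors in every library, Tnfrsf17 and Ltbr lie under the dotted line at 1 FPKM, and the red points of Tnfrsf13c lie under the grey ones while those of Tnfrsf14 and Ltbr lie above them.

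Of the receptors for the cytokines BAFF and APRIL, BAFF-R was the most abundant and BCMA was near the lower end of the scale. Tnfrsf13c, encoding BAFF-R, which binds BAFF alone and keeps mature B cells alive, had an FPKM of 249 and 220.3 in WT and of 172 and 159 in Ets1-/- libraries. The genotypes did not overlap, and the replicates of each lay closer to one another than to the other genotype. WT libraries averaged 235 ± 20.4 FPKM (SD, n = 2), which is 1.42 times the 165 ± 9.38 FPKM (SD, n = 2) of the Ets1-/- libraries. The log2 fold change was -0.50 (standard error 0.16, 95% interval -0.91 to -0.09, limma, BH-adjusted p = 0.256), so the difference was not called. The B cell marker Cd79a was also lower in both Ets1-/- libraries, with a mean 0.767 times that of WT against 0.704 times for Tnfrsf13c, while Ms4a1 and Pax5 had overlapping genotypes and means 0.983 and 1.07 times those of WT. The part of B cell content in the Tnfrsf13c values was not tested. Within each library it ranked between 308 and 563 by FPKM among all genes. Tnfrsf13c lies on the minus strand of chromosome 15 (mm9, 82052174 to 82054790) and is a compact gene of 3 exons.

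Tnfrsf13b encodes TACI, which binds both BAFF and APRIL and is known for restraining B cell numbers as well as for driving class switching. It had an FPKM of 74.7 and 55.0 in WT and of 46.5 and 75.3 in Ets1-/- libraries. The lowest and the highest value both came from Ets1-/- libraries, with the WT values between them. The means of 64.8 ± 14.0 FPKM (SD, n = 2) for WT and 60.9 ± 20.4 FPKM (SD, n = 2) for Ets1-/- libraries differed by less than either spread. The log2 fold change was -0.11 (95% interval -0.84 to 0.62, limma, BH-adjusted p = 0.947), the widest interval of the 8. The Ets1-/- replicates differed by 1.62 times, a ratio that among the 10 receptors was exceeded only by Tnfrsf17. The gene lies on the plus strand of chromosome 11 (mm9, 60940257 to 60962874), and 1 annotated gene on the opposite strand overlaps it.

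Tnfrsf17 encodes BCMA, the APRIL receptor of plasma cells. Its FPKM was 0.386 and 0.528 in WT and 0.0926 and 0.353 in Ets1-/- libraries. Both Ets1-/- values lay under both WT values, but the gap to WT was small beside the 3.81-fold difference between the Ets1-/- replicates. The means were 0.457 ± 0.101 FPKM (SD, n = 2) and 0.223 ± 0.184 FPKM (SD, n = 2), and at such levels a value rests on few fragments. The gene did not pass the filter on low values and was not tested. The list of plasma cell markers (Sdc1, Prdm1, Xbp1, Irf4, Igj and Slamf7) did not move one way. In both Ets1-/- libraries 3 of 6 markers were higher and 2 of 6 lower, against 19.4% and 22.2% of all genes tested. Called were 0 of 6, against 1.70%. The list summed to 181 and 201 FPKM in WT and 156 and 167 FPKM in Ets1-/- libraries, and its part in the Tnfrsf17 values was not tested. Tnfrsf17 lies on the plus strand of chromosome 16 (mm9, 11313905 to 11320167).

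The balance between the BAFF receptors, which FPKM allows to be read within a library because it is scaled per length, varied more between the Ets1-/- libraries than between the WT libraries. The FPKM of Tnfrsf13c was 3.33 and 4.01 times that of Tnfrsf13b in WT and 3.70 and 2.11 times in Ets1-/- libraries. Only Ets1-/- replicate 2 stood outside the WT values, and the genotypes overlapped.

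Since Ets1 binds DNA at sites with a GGAA core, the starts of these genes are shown with every such core in capitals, on either strand (GGAA, or TTCC where it lies on the other strand). The 120 bases before the RefSeq start are given for the BAFF and APRIL receptors, the best known survival receptors of the group, and for Ltbr, for which the genotypes differed by the largest ratio. The sequences come from RefSeq promoters of the GRCm38.p6 assembly and were placed on mm9 by exact match, at chr15:82054811-82054930 on the minus strand for Tnfrsf13c, chr11:60940137-60940256 on the plus strand for Tnfrsf13b, chr16:11313782-11313901 on the plus strand for Tnfrsf17 and chr6:125263904-125264023 on the minus strand for Ltbr.
Tnfrsf13c: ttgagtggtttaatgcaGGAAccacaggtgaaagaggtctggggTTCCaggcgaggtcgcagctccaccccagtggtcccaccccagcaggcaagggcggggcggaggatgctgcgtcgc
Tnfrsf13b: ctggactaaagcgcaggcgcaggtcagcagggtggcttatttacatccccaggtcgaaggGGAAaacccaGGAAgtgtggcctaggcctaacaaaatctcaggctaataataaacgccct
Tnfrsf17: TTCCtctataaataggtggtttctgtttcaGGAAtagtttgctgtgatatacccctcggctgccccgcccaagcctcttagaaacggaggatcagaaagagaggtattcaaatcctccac
Ltbr: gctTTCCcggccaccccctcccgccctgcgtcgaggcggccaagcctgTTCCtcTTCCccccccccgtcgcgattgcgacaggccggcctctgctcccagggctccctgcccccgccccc

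Promoters of 250 bases before to 50 bases after the start were available for 9 of the 10 receptors, all but Cd40. Within these 300 bases the GGAA core was found on either strand from 2 times, in Cd27, to 7 times, in Tnfrsf1b. The core was present at least once in 96.0% of all 32851 mouse promoters of this length, with a median of 3 matches. The longer ETS site CCGGAA, which contains the GGAA core, was found on either strand in Tnfrsf1b, Tnfrsf1a and Ltbr, or 3 of 9, and in 14.9% of all promoters. Tnfrsf13c and Tnfrsf14, the tested receptors whose genotypes did not overlap, each held 4 matches to the core and no match to the longer site. These are matches of letters only, and binding of Ets1 was not measured in these libraries. The study mapped Ets1 binding by ChIP-seq in separately purified splenic B cells, and those data were not used here.

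Cd40 and Cd27, the costimulatory receptors, were nearly level between the genotypes. Cd40, the receptor for CD40 ligand on helper T cells, had an FPKM of 95.5 and 95.4 in WT and of 90.8 and 107 in Ets1-/- libraries. The WT values were almost equal and lay between the Ets1-/- values. The means were 95.5 ± 0.118 FPKM (SD, n = 2) and 98.7 ± 11.2 FPKM (SD, n = 2), and the log2 fold change of 0.043 had the narrowest 95% interval of the 8 tested receptors, -0.35 to 0.44 (limma, BH-adjusted p = 0.970). Cd40 lies on the plus strand of chromosome 2 (mm9, 164881127 to 164898448).

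Cd27, the receptor for CD70, is also expressed by T cells. It had an FPKM of 8.76 and 6.44 in WT and of 7.36 and 7.69 in Ets1-/- libraries. Both Ets1-/- values fell between the WT values. The log2 fold change was 0.0013 (95% interval -0.46 to 0.46, limma, BH-adjusted p = 0.999). RNA of T cell genes was present too, and the 8 T cell markers summed to 73.2 to 97.7 FPKM over the 4 libraries. None of them was called, against 1.70% of all genes tested, and none was at 0 in all libraries. Cd3g was higher in both Ets1-/- libraries, at 25.5 and 32.9 FPKM against 22.8 and 16.9 FPKM in WT. Cd8a was lower in both, at 4.45 and 4.85 against 6.88 and 5.11 FPKM, and the other 6 overlapped. Of all genes tested, 19.4% were higher and 22.2% lower without overlap. How much of the Cd27 value came with the T cell genes was not tested. The span of Vamp1, a gene on the opposite strand, overlaps that of Cd27. Vamp1 had a mean of 18.8 FPKM in WT and 14.4 FPKM in Ets1-/- B cells. The library kit does not mark strand, so that reads in the overlap cannot be assigned to a single gene.

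Tnfrsf14 encodes HVEM, a receptor that takes LIGHT and lymphotoxin as ligands and also binds the inhibitory receptor BTLA on lymphocytes. It had an FPKM of 21.5 and 17.6 in WT and of 24.8 and 30.0 in Ets1-/- libraries. Both Ets1-/- values lay above both WT values, and the smallest gap between the genotypes was narrower than the gap between the replicates of either one. Ets1-/- libraries averaged 27.4 ± 3.70 FPKM (SD, n = 2), or 1.40 times the 19.6 ± 2.78 FPKM (SD, n = 2) of WT. The log2 fold change was 0.47 (standard error 0.18, 95% interval 0.018 to 0.91, limma, BH-adjusted p = 0.348), and was not called. Tnfrsf14 was highest in Ets1-/- replicate 2. Of the macrophage and monocyte markers only Emr1 was also highest there, at 23.5 and 37.2 FPKM in Ets1-/- libraries. The sum of that list, 150.2 and 95.5 FPKM in Ets1-/- libraries, and the summed neutrophil markers were highest in Ets1-/- replicate 1. The part of such cells in the Tnfrsf14 values was not tested. Its binding partner Btla, at 170.0 and 201 FPKM in WT and 235 and 109 FPKM in Ets1-/- libraries, had overlapping genotypes, and Btla was 3.63 to 11.4 times as abundant as Tnfrsf14 within a library. Tnfrsf14 lies on the minus strand of chromosome 4 (mm9, 154296319 to 154302672).

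Of the receptors for TNF, TNFR2 was the more abundant in every library. Tnfrsf1b, encoding TNFR2, which recruits TRAF proteins and has no death domain, had an FPKM of 9.80 and 8.69 in WT and of 8.29 and 10.9 in Ets1-/- libraries. Tnfrsf1a, encoding the death domain receptor TNFR1, had an FPKM of 1.80 and 0.974 in WT and of 1.5 and 1.21 in Ets1-/- libraries. For Tnfrsf1b the WT values lay between the Ets1-/- values, and for Tnfrsf1a the reverse held. The log2 fold changes were 0.041 (95% interval -0.42 to 0.50) for Tnfrsf1b and -0.0020 (95% interval -0.58 to 0.58) for Tnfrsf1a, with BH-adjusted p-values of 0.977 and 0.999 in limma. Tnfrsf1b lies on the minus strand of chromosome 4 (mm9, 144803366 to 144836773).

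Fas, the death receptor that removes activated and autoreactive lymphocytes, had an FPKM of 5.13 and 9.18 in WT and of 7.20 and 8.12 in Ets1-/- libraries. Both Ets1-/- values fell between the WT values, which differed from one another by 1.79 times. The means were 7.15 ± 2.86 FPKM (SD, n = 2) and 7.66 ± 0.649 FPKM (SD, n = 2), and the log2 fold change was 0.13 with a 95% interval from -0.56 to 0.82 (limma, BH-adjusted p = 0.928). The gene lies on the plus strand of chromosome 19 (mm9, 34365149 to 34402260) and is the longest of the 10, at 37112 bases.

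Ltbr encodes the lymphotoxin beta receptor, which stromal and myeloid cells use to build lymphoid tissue and which lymphocytes largely lack. Its FPKM was 0.174 and 0.156 in WT and 0.417 and 0.454 in Ets1-/- libraries. The genotypes did not overlap, and the gap between them was wider than that between the replicates of either one. Ets1-/- libraries averaged 0.436 ± 0.0260 FPKM (SD, n = 2) beside 0.165 ± 0.0128 FPKM (SD, n = 2) for WT, a ratio of 2.64 that was not tested because both means are under 1 FPKM. With every gene above 0 admitted to the fit, Ltbr had an unadjusted p of 0.00163 and a BH-adjusted p of 0.0935 in limma. It was not called in that fit, and its log2 difference on the log2(FPKM + 1) scale was 0.30. As for Tnfrsf17, a value at such levels rests on few fragments. Of the 8 macrophage and monocyte markers, Emr1 and Lyz2 were higher in both Ets1-/- libraries, beside 19.4% of all genes tested, and the other 6 overlapped. Emr1 was called, at 2.35 and 2.63 FPKM in WT against 23.5 and 37.2 FPKM in Ets1-/- libraries. The 8 markers summed to 64.8 and 31.7 FPKM in WT and to 150.2 and 95.5 FPKM in Ets1-/- libraries, with Lyz2 the most abundant of them, and none was at 0 in all libraries. The summed neutrophil markers differed by 3.65 times and the summed macrophage and monocyte markers by 1.57 times between the Ets1-/- replicates, while Ltbr differed by 1.09 times. The part of such cells in the Ltbr values was not tested.

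Cd27, Ltbr and Tnfrsf1a, 3 of the receptors, are neighbours within 129.9 kb of chromosome 6, from 125182640 to 125312502 of mm9. Cd27 runs from 125182640 to 125187028 and Ltbr from 125256589 to 125263903, both on the minus strand, and Tnfrsf1a from 125299380 to 125312502 on the plus strand. The other 2 protein-coding genes that lie wholly inside this stretch were nearly silent, with a mean over the 4 libraries of 0.0298 FPKM for Tuba3a and 0.0458 FPKM for Scnn1a. The level was 7.56 FPKM for Cd27, 0.300 FPKM for Ltbr and 1.37 FPKM for Tnfrsf1a, again as means over all 4 libraries. The genotypes overlapped for 4 of these 5 genes, all but Ltbr. Of all genes tested, 19.4% were higher and 22.2% lower without overlap. Only 2 of the 5 genes, Cd27 and Tnfrsf1a, were tested.

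**Figure D2:**
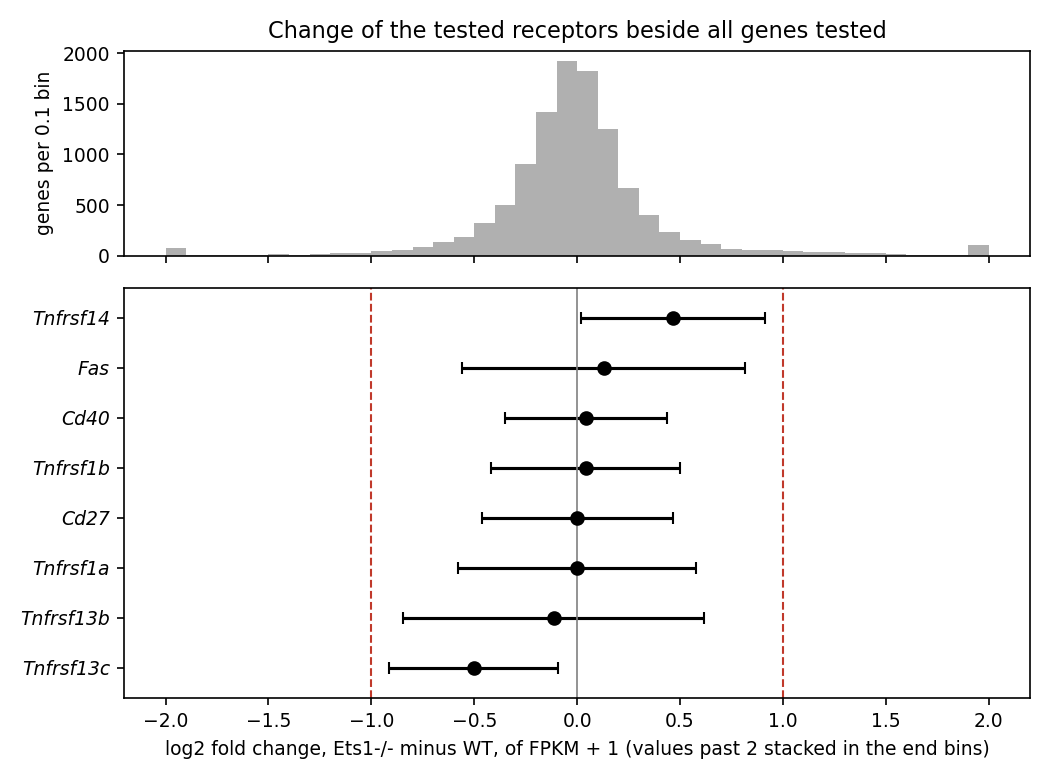
Lower panel: difference in log2(FPKM + 1), Ets1-/- minus WT, of the 8 tested receptors, with 95% intervals from limma and dashed lines at 1 and -1. Upper panel: the number of genes tested per bin of 0.1 on the same axis. The intervals of Tnfrsf13c (-0.91 to -0.09) and Tnfrsf14 (0.018 to 0.91) do not cross 0 and those of the other 6 do, and no interval reaches a dashed line.

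The 95% intervals are not adjusted for the number of genes and lay within a 2-fold change on the log2(FPKM + 1) scale for all 8 tested receptors. The lowest and highest bounds were -0.91 and 0.91. Those fold changes are smaller than the change in FPKM itself for Tnfrsf1a, the least abundant of the 8, because 1 is added to each value.

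By their mean over the 4 libraries the receptors were ordered as Tnfrsf13c, Cd40, Tnfrsf13b, Tnfrsf14, Tnfrsf1b, Cd27, Fas, Tnfrsf1a, Tnfrsf17 and Ltbr. For 6 of the 9 adjacent pairs in this order every library of the higher gene lay above every library of the lower. The 3 pairs that overlapped were Tnfrsf1b with Cd27, Cd27 with Fas, and Tnfrsf17 with Ltbr. Tnfrsf17 was above Ltbr in both WT libraries, at 0.386 and 0.528 against 0.174 and 0.156 FPKM, and under it in both Ets1-/- libraries, at 0.0926 and 0.353 against 0.417 and 0.454 FPKM.

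The 10 receptors summed to 467 and 414 FPKM in WT and to 359 and 399 FPKM in Ets1-/- libraries. Tnfrsf13c made up 53.4% and 53.2% of that sum in WT and 47.9% and 39.7% in Ets1-/- libraries, a mean of 53.3% ± 0.115 (SD, n = 2) and 43.8% ± 5.78 (SD, n = 2). Cd40 made up 20.5% and 23.0% in WT and 25.3% and 26.7% in Ets1-/- libraries, although its own FPKM overlapped. Tnfrsf14 went from 4.61% and 4.25% to 6.91% and 7.52%. The share of Tnfrsf13b, 16.0% and 13.3% in WT and 12.96% and 18.9% in Ets1-/- libraries, overlapped. Shares of one sum are tied to each other, so a lower share of Tnfrsf13c raises the rest. The shares are given as a description and were not tested.

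**Figure D3:**
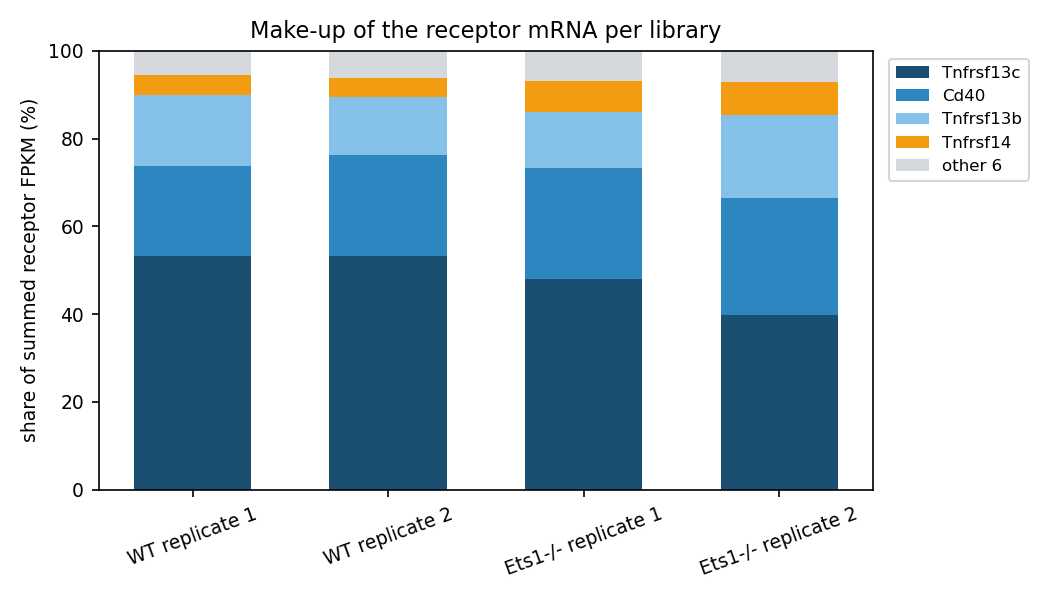
Stacked bars of the share of each receptor, in percent, of the summed FPKM of the 10 receptors, with 1 bar per library and the 6 least abundant receptors joined. Tnfrsf13c fills 53.4% and 53.2% of the WT bars and 47.9% and 39.7% of the Ets1-/- bars, and Tnfrsf14 is the segment that is 4.25% to 4.61% in WT and 6.91% to 7.52% in Ets1-/- libraries.

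Most ligands of these receptors were scarce in the sorted cells, apart from lymphotoxins and TNF. Of 19 ligands and binding partners listed, 9 were tested and 0 called, against 1.70% of all genes tested. The median log2 fold change of the 9 was -0.21 against -0.015 over all genes tested. Lta and Tnfsf9, the latter named after its values were seen, had an unadjusted p under 0.05, against 13.3% of all genes tested. Among the 9, 2 were lower and 2 higher without overlap, against 22.2% and 19.4%. Ltb, the membrane anchor of the lymphotoxin heterotrimer, was the most abundant, at 745 and 634 FPKM in WT and 465 and 678 FPKM in Ets1-/- libraries. Its genotypes overlapped. Lta, which encodes the other lymphotoxin chain, had an FPKM of 40.5 and 38.5 in WT and of 29.6 and 24.2 in Ets1-/- libraries, without overlap, and had the lowest log2 fold change of the list, -0.55 (limma, BH-adjusted p = 0.209). Tnf was at 10.03 and 6.85 FPKM in WT and 5.45 and 8.41 FPKM in Ets1-/- libraries, with overlap. Of the genes for the remaining ligands, Cd40lg was at 1.08 to 1.99 FPKM and had overlapping genotypes, and Tnfsf13b (BAFF), Tnfsf13 (APRIL), Tnfsf14 (LIGHT), Fasl and Cd70 stayed under 1 FPKM in every library. Tnfsf14 was lower in both Ets1-/- libraries, at 0.460 and 0.389 FPKM against 0.796 and 0.664 FPKM in WT. BAFF was at 0.126 and 0.215 FPKM in WT and 0.829 and 0.287 FPKM in Ets1-/- libraries, the higher value in the library with the most RNA of neutrophil markers, the part of which was not tested. Cd70 was listed at 0 in 3 libraries. Tnfsf8, the CD30 ligand, had the highest log2 fold change of the list, 0.33, and Tnfsf15 the lowest mean, 0.00613 FPKM.

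Of 18 other TNF receptor family genes, 9 were tested and 0 called, against 1.70% of all genes tested. Ngfr and Tnfrsf26 had an unadjusted p under 0.05, against 13.3% of all genes tested. The median log2 fold change of the 9 was -0.018. Without overlap 3 of the 9 were higher and 2 lower, against 19.4% and 22.2% of all genes tested. Ngfr, the low-affinity neurotrophin receptor, had the highest log2 fold change of the list. Its FPKM was 3.04 and 3.08 in WT and 5.41 and 9.82 in Ets1-/- libraries, without overlap, and its log2 fold change of 1.04 was past 2-fold without being called (limma, BH-adjusted p = 0.178). It was 1.41 without Ets1-/- replicate 1 and 0.66 without Ets1-/- replicate 2. Tnfrsf26 lay at the other end, at 8.95 and 9.15 FPKM in WT and 6.69 and 5.47 FPKM in Ets1-/- libraries (log2 fold change -0.51, limma, BH-adjusted p = 0.228). Relt was the most abundant of the list, with a mean of 17.7 FPKM, and Edar was listed at 0 in every library.

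On the list of TNF receptor adaptors and related signaling genes, Traf1 and Traf4 were called lower in Ets1-/- B cells, while the others were not called. Of 20 adaptor genes, 19 were listed and tested. Called were 2, both lower, against 1.70% of all genes tested. An unadjusted p under 0.05 was found for 4, all lower, against 13.3% of all genes tested. Besides Traf1 and Traf4 these were Casp8 and Traf3ip3, both named after their values were seen. The median log2 fold change of the 19 was -0.12. Without overlap 3 of them were higher and 7 lower, against 19.4% and 22.2% of all genes tested. Traf1, which pairs with TRAF2 at receptors such as CD40 and TNFR2, had an FPKM of 30.7 and 32.4 in WT and of 6.38 and 6.47 in Ets1-/- libraries (log2 fold change -2.13, limma, BH-adjusted p = 0.00462). Traf4 had an FPKM of 22.1 and 22.7 in WT and of 9.32 and 8.77 in Ets1-/- libraries, with a log2 fold change of -1.22 (limma, BH-adjusted p = 0.0239). Leaving out any 1 of the 4 libraries ended the call of Traf4, at BH-adjusted p-values of 0.0509 to 0.177 in limma. Traf2 and Traf3, which with Birc2 and Birc3 hold the kinase NIK at a low level until a receptor such as BAFF-R or CD40 is engaged, had log2 fold changes of -0.047 and -0.22, and Birc2 and Birc3 of 0.0014 and -0.11. Birc3 was the most abundant adaptor, with a mean of 114 FPKM, Fadd the least, with 5.83 FPKM, and Siva1, which binds the tail of CD27, had the highest log2 fold change, 0.19.

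**Figure D4:**
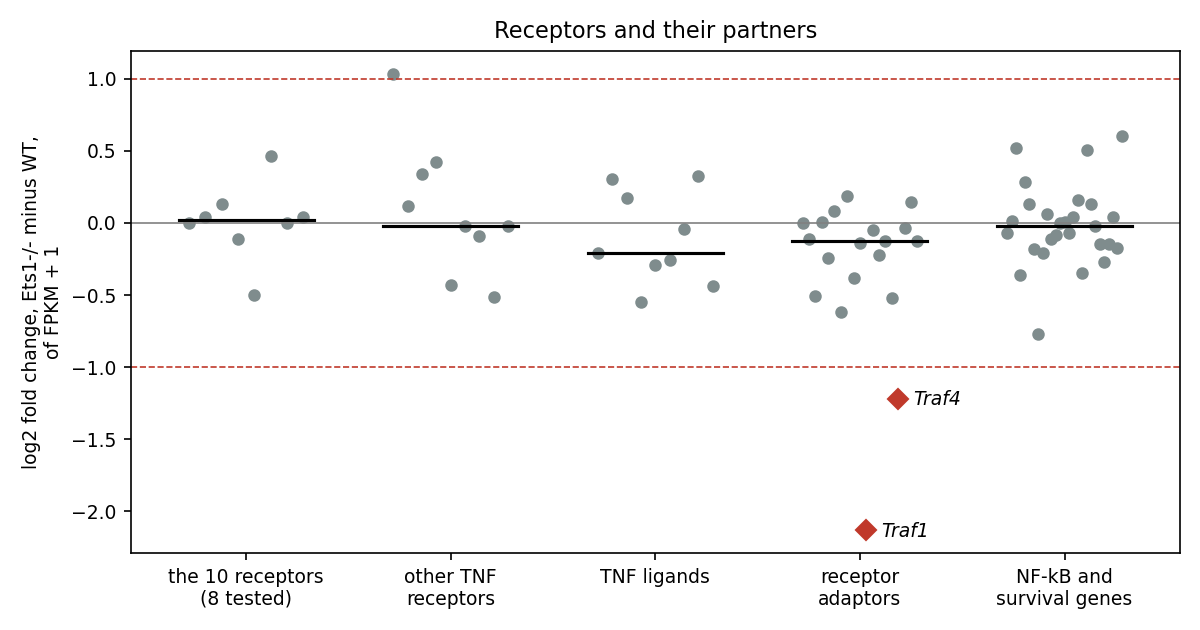
Difference in log2(FPKM + 1), Ets1-/- minus WT, of each tested gene in the receptors and in the 4 partner lists, with 1 point per gene, a black bar at the list median and dashed lines at 1 and -1. Red diamonds are called genes, which are Traf1 (-2.13) and Traf4 (-1.22). Tnfrsf13c and Tnfrsf14 are the lowest and the highest point of the receptors, at -0.50 and 0.47.

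Downstream of the receptors, 28 NF-kB and survival genes were listed, 27 were tested and 0 were called, against 1.70% of all genes tested. An unadjusted p under 0.05 was found for 2, Bcl2 and Bcl2l2, against 13.3% of all genes tested. The median log2 fold change was -0.020. Without overlap 3 of 27 were higher and 6 of 27 lower, against 19.4% and 22.2% of all genes tested. Map3k14, which encodes NIK, had an FPKM of 30.7 and 30.5 in WT and of 27.7 and 34.2 in Ets1-/- libraries, with a log2 fold change of 0.0061. Nfkb2 and Relb, the pair of NF-kB subunits that NIK activates, had log2 fold changes of -0.35 and -0.17. Bcl2, which blocks mitochondrial apoptosis, was at 28.7 and 27.9 FPKM in WT and 45.8 and 36.6 FPKM in Ets1-/- libraries (log2 fold change 0.52, limma, BH-adjusted p = 0.247). Its relative Bcl2l2 had the lowest log2 fold change of the list, -0.77, from 5.27 and 5.25 FPKM to 2.30 and 3.09 FPKM (limma, BH-adjusted p = 0.123). Tnfaip3, the NF-kB inhibitor A20, had the highest, 0.60, with 27.4 and 31.0 FPKM in WT and 58.3 and 34.4 FPKM in Ets1-/- libraries. Mcl1 was the most abundant gene of the list, with a mean of 253 FPKM, and Bcl2a1a the least, with 0.251 FPKM, although reads of the Bcl2a1 genes may be split among near-identical copies. Bcl2 was named after its values were seen.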

How the data were processed

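RNA was sequenced from 2 WT and 2 Ets1-/- libraries made with an Illumina TruSeq RNA kit. Per the labels the authors aligned reads to mm9 with TopHat2 2.0.13 and estimated expression with Cuffdiff, and deposited 1 FPKM table per library, already scaled by gene length and mapped reads. The gene annotation is not given in the sources used here. The tables hold no counts, so precision is given as the spread between libraries, which may in part be technical. Of 23309 entries, 4 with repeated symbols were left out. Genes averaging 1 FPKM or more in WT or in Ets1-/- libraries were fitted on log2(FPKM + 1) with limma 3.58.1 in R 4.3.3 (lmFit, eBayes with trend, residual degrees of freedom 2, prior degrees of freedom 3.10), without a block, and p-values were adjusted over all 10949 genes. A run on simulated data tested this fit. Positions come from GENCODE M1 on mm9 (NCBIM37), and Python 3.11.15 (numpy 2.4.6, pandas 2.3.3) gave the remaining values.

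The receptors, partner lists and marker lists (B cell, marginal zone, plasma cell, activated or memory B, T cell, NK cell, neutrophil, macrophage or monocyte, erythroid) were chosen with earlier results of these data known. Of the B cell list 3 markers are given, and 1 result is not reported here. All receptors are named, and of each partner list the called genes, the largest rise and fall, the highest and lowest mean, and fixed ligands and adaptors. The marginal zone list had 2 of 6 genes lower without overlap and the activated or memory B list 3 of 6 higher and 1 of 6 lower, with 0 called in either. Among all genes tested 22.2% were lower and 19.4% higher without overlap, and 1.70% were called. Genes of similar pattern were not ranked, since 4 libraries are too few for a correlation. Alternatives were the pseudocount, the filter, quantile and upper-quartile scaling, the trend, the replicate block, each library left out, and calls without a minimum fold change.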

Additional observations from a re-analysis of the deposited data

How the results depend on the processing

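No receptor was called under any of the 12 alternatives run for that count, which beside those named below include calls without a minimum fold change and a fit without the trend. Tnfrsf13c stayed lower (log2 fold change -0.64 to -0.41) and Tnfrsf14 higher (0.33 to 0.60) in Ets1-/- B cells under every alternative, with BH-adjusted p-values in limma of 0.169 and 0.0893 at the lowest. The sign of the other 6 tested receptors depended on which library was left out, with log2 fold changes of -0.45 to 0.23 for Tnfrsf13b, -0.072 to 0.16 for Cd40, -0.19 to 0.20 for Cd27, -0.26 to 0.25 for Tnfrsf1a, -0.14 to 0.22 for Tnfrsf1b and -0.24 to 0.50 for Fas. Cd40 also turned to -0.0073 after quantile normalization, and Tnfrsf1a to 0.017 with a pseudocount of 0.1 and to 0.023 after upper-quartile scaling. With a pseudocount of 0.1 the untested log2 differences were -0.90 for Tnfrsf17 and 1.02 for Ltbr, in place of -0.26 and 0.30. Scaling moved the median of all genes by at most 0.039. Without the filter on low values 75 of all genes and 1 adaptor were called, in place of 186 and 2, with 17315 genes tested, and with each library left out in turn the counts were 130 to 144 and 1, always Traf1 and without Traf4 (limma, BH-adjusted p = 0.0180 to 0.0270). With the replicate block 266 genes and 0 receptors were called and the 2 adaptors stayed called, and Tnfrsf13c and Tnfrsf14 had BH-adjusted p-values of 0.532 and 0.624. The deviations of same-numbered libraries were negatively correlated across genes (-0.207). With 2 libraries per genotype this value cannot show whether same-numbered libraries were handled together. A block with crossed numbers, added after seeing the data, called 409 genes, 0 of the 10 receptors and 1 of the other TNF receptors, Ngfr (limma, BH-adjusted p = 0.00652). The cause of these changes was not tested. The paper gives read numbers only as a range over the samples. The counting error of Tnfrsf17 and Ltbr, both under 1 FPKM, was therefore not worked out per library.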
